A study of Rattus norvegicus with 16 samples.

Results

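Serpins are protease inhibitors that share 1 fold and are sorted into clades by letter, from clade A to clade I in the rat genes studied here. Members were the gene symbols made of Serpin, a clade letter and a number that had a probe on the array through a RefSeq transcript. Of the 54 symbols of this kind in the RefSeq gene table of the rat, 39 had a probe, among 16678 gene symbols on the array, and the other 15 were not analysed here. The 39 genes had 43 probes, with 2 probes each for Serpinb9, Serpinb12, Serpinc1 and Serpinh1, and the brightest probe in a tissue stood for its gene.

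Each of 8 male Brown Norway rats gave RNA from lung and from adipose tissue, with 1 array for each rat and tissue (16 arrays). The stated age of 7 weeks is that of the rats that entered the schedule below, and tissue was taken after it. In the house dust mite (HDM) group, 5 rats were sensitized under the skin once a week for 3 weeks, each time with HDM (45 µg) mixed with the adjuvant Al(OH)3, and were then given HDM (120 µg) into the nose 3 times a week for another 3 weeks. The 3 control rats had the same schedule with saline, so that the adjuvant Al(OH)3 was common to both groups. Values are log2 signals relative to the 75th percentile of the array, where 0 is a signal at that percentile, and each fold change is the HDM group over the control group.

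An inhibitory serpin offers a flexible loop as bait to a protease, and after the loop has been cut the serpin changes shape and holds the protease in a dead covalent complex. Most clade A serpins are made in the liver and circulate in plasma, where alpha-1-antitrypsin guards the lung against neutrophil elastase, whereas clade B serpins lack a classical signal peptide and mostly stay inside cells. Other clades control clotting, fibrinolysis and complement, and some members, such as the collagen chaperone Serpinh1, inhibit no protease.

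The 60-base probe of Serpinb1a, the intracellular inhibitor of neutrophil elastase and cathepsin G, is shown because this gene had the largest difference in lung among the members with higher values in every HDM rat. The RefSeq sequences of the 250 bases before the start of 3 genes (build GRCr8, plus strand for all 3) are shown for the genes on which the lung comparison (Serpinb1a) and the comparison of tissues (Serpina3n and Serpinb10) turned. They were read at chr17:31799196-31799445 for Serpinb1a, at chr6:129088142-129088391 for Serpina3n and at chr13:24067803-24068052 for Serpinb10. Capitals mark matches to 5 motifs searched on both strands, which were the E-box CACGTG, the AP-1 motif TGANTCA, the C/EBP-type motif TTGCNNAA, the GC box GGGCGG and the TATA box TATAAA.
Serpinb1a probe: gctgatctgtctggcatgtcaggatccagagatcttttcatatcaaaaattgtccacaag
Serpinb1a upstream: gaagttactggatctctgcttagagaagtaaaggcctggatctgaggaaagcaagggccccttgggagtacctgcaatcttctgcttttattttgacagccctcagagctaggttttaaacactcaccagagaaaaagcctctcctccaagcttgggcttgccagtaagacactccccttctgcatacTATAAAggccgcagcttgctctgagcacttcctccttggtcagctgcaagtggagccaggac
Serpina3n upstream: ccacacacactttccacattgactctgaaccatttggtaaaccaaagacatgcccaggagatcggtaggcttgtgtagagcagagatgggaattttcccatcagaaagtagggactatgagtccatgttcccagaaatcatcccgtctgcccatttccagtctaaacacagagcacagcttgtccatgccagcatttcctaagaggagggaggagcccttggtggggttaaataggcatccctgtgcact
Serpinb10 upstream: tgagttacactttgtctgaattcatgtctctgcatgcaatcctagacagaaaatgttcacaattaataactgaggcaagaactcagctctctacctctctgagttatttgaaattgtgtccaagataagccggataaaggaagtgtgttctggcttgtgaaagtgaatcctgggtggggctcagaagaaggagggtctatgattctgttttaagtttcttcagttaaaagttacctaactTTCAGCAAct

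The TATA box before Serpinb1a began 62 bases before the start, and 12.9% of 33469 rat promoter windows of this length held one. In Serpinb10 the C/EBP-type motif lay on the opposite strand 10 bases before the start, and 9.22% of all windows held it. Serpina3n held none of the 5 motifs in this window. Among the 29 members with a promoter in the RefSeq table, 4 held the TATA box (13.8%), 5 the C/EBP-type motif (17.2%), 3 the AP-1 motif (10.3%, against 6.34% of all windows), 7 the GC box (24.1%, against 30.5%) and 1 the E-box (3.45%, against 5.59%).

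The members lay in a few gene clusters. All 14 clade A genes were on chromosome 6, while the 15 clade B genes were divided between chromosome 13 (8 genes) and chromosome 17 (7 genes). The other 10 genes belonged to clades C to I. Close relatives within these clusters, above all the Serpina3, Serpina1f, Serpinb6 and Serpinb9 genes, have similar sequences, and their probes may share signal.

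In lung, 24 of the 39 genes were well above background on at least 3 of the 8 arrays, and 22 were so in adipose tissue. Both tissues had 20 of them. Serpina6 (corticosteroid-binding globulin), Serpinb6el1, Serpind1 (heparin cofactor II, a thrombin inhibitor) and Serpini1 (neuroserpin, an inhibitor of tissue plasminogen activator) passed this level in lung and not in adipose tissue. Serpina12 (vaspin, a serpin secreted by fat) and Serpina3c passed it in adipose tissue and not in lung. The remaining 13 genes passed it in neither tissue, and 7 of them passed the background mark on none of the 16 arrays, which were Serpina9, Serpina16, Serpinb2, Serpinb9b, Serpinb9d, Serpinb12 and Serpinb13. Clade B was split, since 7 of its 15 genes were measured in both tissues and another 7 in neither.

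In lung, no serpin gene was called between the groups at an adjusted p below 0.05 and a fold change above 1.5, where 0.855% of all 45598 probes were called (390 probes, with 0.482% higher and 0.373% lower in HDM rats). At an unadjusted p below 0.05 there were 7 serpin genes (17.9% of 39), beside 10.2% of all probes. By the brightest probe of each gene, 2110 of all 16678 gene symbols had such a p. Of the 7 serpin genes, 3 were higher and 4 lower in HDM rats. The 3 higher genes, Serpinb8, Serpinb1a and Serpinb9, were all of clade B, and the lower genes included Serpina12, Serpind1 and Serpinh1. Serpina12 did not rise above background in the lung of any rat. The median log2 fold change over the 39 genes was 0.01, and over all probes it was 0.00. Over all 16678 gene symbols, each by its brightest probe, it was -0.01.

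**Figure D1:**
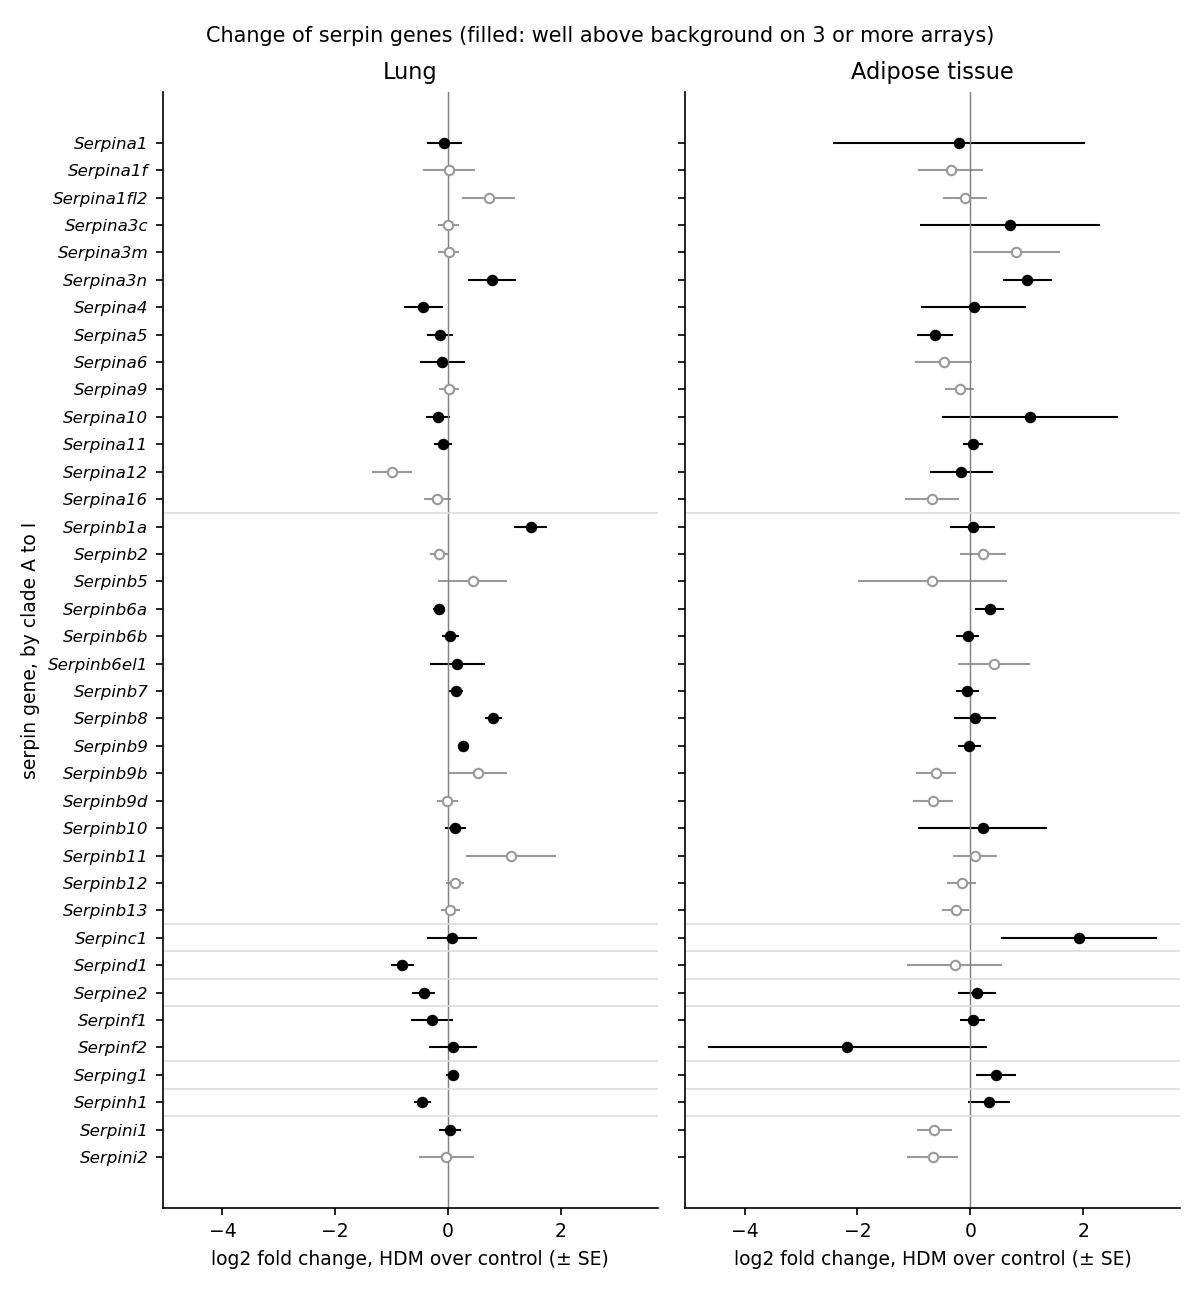
Log2 fold change (HDM over control, with its standard error) of the serpin genes in lung (left) and in adipose tissue (right), 1 row per gene, with grey lines between clades; filled points mark genes well above background on at least 3 of 8 arrays. In lung Serpinb1a (1.46) lies farthest from 0 among the genes drawn, and in adipose tissue the standard errors are wide for Serpina1 (2.24) and Serpinf2 (2.47).

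Serpinb8, an intracellular serpin known to inhibit furin, had the smallest p of the family in lung. Its log2 value was -2.10, -2.47, -2.26, -2.35 and -2.58 in HDM rats 1 to 5, and -3.03, -3.03 and -3.40 in control rats 1 to 3. Every HDM rat was above every control rat. The mean was -2.35 ± 0.19 (SD, n = 5) with HDM and -3.15 ± 0.21 (SD, n = 3) without, a difference of 0.80 (SE 0.15) on the log2 scale or 1.74-fold, with an adjusted p of 0.064 by limma.

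Serpinb1a had the log2 values 4.39, 3.62, 4.78, 3.72 and 3.64 in HDM rats 1 to 5 and 2.63, 2.57 and 2.50 in control rats 1 to 3. The control rats were close together, all HDM rats were above them, and HDM rats 3 and 1 were the highest. The means were 4.03 ± 0.53 (SD, n = 5) and 2.57 ± 0.07 (SD, n = 3), and the difference of 1.46 (SE 0.29), or 2.75-fold, had an adjusted p of 0.072 by limma. Both Serpinb1a and Serpinb8 passed the threshold under some other settings, with array weights (adjusted p of 0.028 and 0.042 by limma) and with dim probes left out (0.033 and 0.025). Neither passed it when any 1 rat was left out.

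Serpinb9, the intracellular inhibitor of granzyme B, was chosen for description after its values were seen. In HDM rats 1 to 5 its log2 value in lung was 2.40, 2.33, 2.43, 2.32 and 2.25, and in control rats 1 to 3 it was 2.07, 2.12 and 2.06. The groups did not overlap, although the difference was small, at 0.26 (SE 0.09) with an adjusted p of 0.354 by limma. The second Serpinb9 probe was also higher in HDM rats, by 0.41 (SE 0.13).

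The neutrophil marker list moved with these genes in lung. Of its 18 measured genes 9 were called, all higher in HDM rats, beside 0.855% of all probes called. In every HDM rat 11 of the genes were higher and 1 was lower than in any control rat, beside 9.61% of all probes without overlap. The summed level of the list (log2) was 7.74 to 8.51 in HDM rats and 5.56 to 6.19 in control rats. S100a8, a calcium-binding protein of neutrophil granulocytes, was higher by 4.46 and the collagenase gene Mmp8 by 3.95 on the log2 scale. S100a9 (4.09), Mmp9 (3.23) and the chemokine receptor gene Cxcr2 (2.46) were higher as well, and Prok2, not well above background in control rats, was at least 16.3-fold higher. The 2 rats with the highest sums, HDM rat 3 (8.51) and HDM rat 1 (8.23), were also the 2 rats with the highest Serpinb1a. The granule genes Elane and Ltf of the list did not rise above background in the lung of any rat. The part of the neutrophil genes in the serpin values was not tested, and in bulk tissue more cells of a type cannot be told apart from more RNA per cell. The macrophage and monocyte list (14 genes, none called) had overlapping summed levels, 8.84 to 9.25 in HDM rats and 8.97 to 9.16 in control rats. Of its genes, 3 were higher and 0 lower in every HDM rat than in any control rat, beside 9.61% of all probes without overlap. An unadjusted p below 0.05 was found for 3 of the 14, beside 10.2% of all probes.

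Serpind1 was lower in all HDM rats. Its log2 value in lung was -4.67, -4.48, -3.84, -3.95 and -4.12 in HDM rats 1 to 5 and -3.46, -3.32 and -3.42 in control rats 1 to 3. The control rats lay within a narrow range above all HDM rats. The difference was -0.81 (SE 0.20), with means of -4.21 ± 0.35 (SD, n = 5) and -3.40 ± 0.07 (SD, n = 3), and its adjusted p was 0.155 by limma (0.040 with array weights).

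HDM rat 5 shared its row of the slide with the control rats, while HDM rats 1 to 4 were on the other row. For HDM rats 1 to 4, HDM treatment and slide row cannot be told apart. Within the shared row the difference in lung was -0.72 for Serpind1, 1.07 for Serpinb1a and 0.57 for Serpinb8, each from 1 HDM rat against 3 control rats.

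Serpinh1, a chaperone that binds procollagen in the endoplasmic reticulum, had log2 values of 3.45, 3.62, 3.1, 3.71 and 3.42 in HDM rats 1 to 5 and 3.92, 3.83 and 4.00 in control rats 1 to 3. All HDM rats were below the control rats, by -0.46 (SE 0.15) on the log2 scale with an adjusted p of 0.301 by limma, and the second probe gave -0.35 (SE 0.16). Serpine2 (protease nexin-1, a thrombin inhibitor on cell surfaces), also chosen after its values were seen, did not overlap either, with -1.45, -1.46, -2.15, -1.97 and -1.56 against -1.38, -1.39 and -1.08, and the difference was -0.44 (SE 0.20, adjusted p of 0.521 by limma). In all, 3 serpin genes were higher and 3 lower in every HDM rat than in any control rat (15.4% of 39), beside 9.61% of all probes in which the groups did not overlap.

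**Figure D2:**
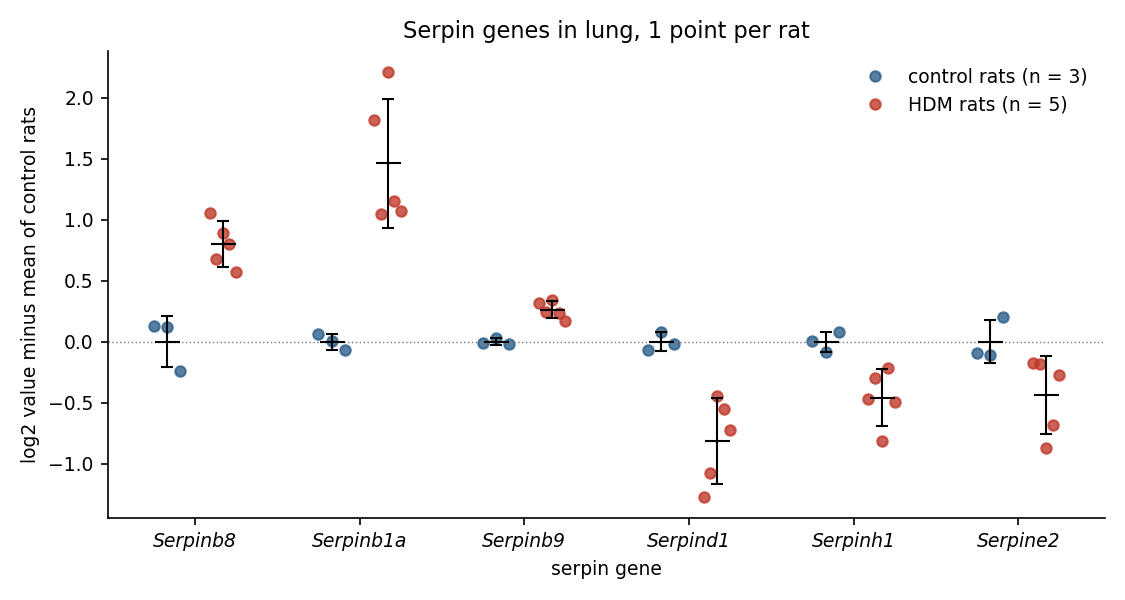
Log2 values of 6 serpin genes in the lung of each rat, as the difference from the mean of the control rats; points are rats (red, 5 HDM rats; blue, 3 control rats) and black bars are the mean and SD. HDM rats lie above all control rats for Serpinb8, Serpinb1a and Serpinb9 and below them for Serpind1, Serpinh1 and Serpine2.

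Apart from the 7 genes counted above, no serpin gene had an unadjusted p below 0.05 in lung. Serpina1, the gene of alpha-1-antitrypsin, had log2 values from -2.72 to -1.38 in HDM rats (median -1.74) and from -1.97 to -1.55 in control rats, with a difference of -0.07 (SE 0.31). Serping1, the C1 inhibitor of the complement and contact systems, lay between 5.38 and 5.79 in HDM rats and between 5.53 and 5.62 in control rats. Serpinb10, known from bone marrow cells, lay between 2.73 and 3.51 against 2.77 to 2.89, and HDM rat 3 was the highest. Of the 24 genes measured in lung, the 19 that were well above background on all 8 arrays had a median range of 0.70 log2 units over the HDM rats.

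Of 47 measured genes for serpin target proteases, their receptors and cofactors, 1 was called in lung, beside 0.855% of all probes. This was Plat, the tissue plasminogen activator that Serpini1 inhibits, with log2 values of 3.87, 3.94, 3.78, 4.04 and 4.01 in HDM rats 1 to 5 and 4.60, 4.54 and 4.61 in control rats 1 to 3. It fell by 0.66 (SE 0.10, adjusted p of 0.033 by limma), and no HDM rat reached the control rats. Plau, the urokinase gene, was 0.49 (SE 0.19) higher with an adjusted p of 0.426 by limma, and was chosen after its values were seen. At an unadjusted p below 0.05 there were 8 genes of this target list, beside 10.2% of all probes, and its median log2 fold change was -0.02. In every HDM rat 4 of its genes were lower and 1 was higher than in any control rat, beside 9.61% of all probes without overlap. The summed level of the list was 7.65 to 7.82 in HDM rats and 7.95 to 8.01 in control rats. The genes of the neutrophil proteases elastase (Elane) and cathepsin G (Ctsg) did not rise above background in any lung. None of the 18 measured secreted inhibitors outside the serpin family was called, beside 0.855% of all probes. An unadjusted p below 0.05 was found for 4 of them, beside 10.2% of all probes, and their median log2 fold change was -0.11. In these inhibitors 6 genes were lower and 1 was higher in every HDM rat than in any control rat, beside 9.61% of all probes without overlap, and their summed level was 8.64 to 8.78 in HDM rats and 8.87 to 8.91 in control rats. In adipose tissue no gene of either list was called, and the medians were -0.03 for the targets and -0.12 for the other inhibitors. No gene of the lung epithelium, adipocyte, hepatocyte, epididymis and testis, or macrophage and monocyte lists was called in either tissue.

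In adipose tissue no serpin gene was called, and neither was any other probe (0%). At an unadjusted p below 0.05 there were 2 serpin genes (5.1%), beside 9.9% of all probes (4515 probes). By the brightest probe of each gene, 1325 of all 16678 gene symbols had such a p. The median log2 fold change of the 39 genes was -0.05, and that of all probes was -0.15 (0.14 when arrays were scaled to their median). Over all 16678 gene symbols, each by its brightest probe in the tissue, the median was also -0.05. The groups did not overlap for 2 serpin genes, both lower in HDM rats and Serpina5 among them, beside 6.26% of all probes.

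Serpina3n, an acute-phase serpin of the alpha-1-antichymotrypsin group, was bright in adipose tissue. It had log2 values of 7.48, 7.33, 8.08, 7.41 and 7.66 in HDM rats 1 to 5 and 5.40, 7.35 and 6.99 in control rats 1 to 3. Control rat 1 was far below the other 7 rats, and control rat 2 lay above HDM rat 2. The difference of 1.01 (SE 0.43, adjusted p of 0.494 by limma) came to 0.42 without control rat 1. In lung Serpina3n was -0.42, -0.09, -1.63, -1.39 and 0.02 in HDM rats 1 to 5 against -1.44, -1.86 and -1.13, a difference of 0.78 (SE 0.42, adjusted p of 0.651 by limma) between overlapping groups.

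Serpina5, the protein C inhibitor, was -4.05, -2.74, -2.81, -3.09 and -2.98 in adipose tissue of HDM rats 1 to 5 and -2.23, -2.63 and -2.66 in control rats 1 to 3. HDM rat 1 was the lowest by about 1 log2 unit and was the only rat not well above background, and the difference was -0.62 (SE 0.32, adjusted p of 0.569 by limma), or -0.26 without HDM rat 1 and control rat 1. Serpinc1, the gene of antithrombin, was -1.56, -0.22, -5.84, -6.30 and -2.76 in HDM rats 1 to 5 and -5.67, -5.23 and -4.88 in control rats 1 to 3. With this probe only HDM rats 1, 2 and 5 were well above background, and HDM rats 3 and 4 were below all control rats. The difference of 1.92 had an SE of 1.39 (adjusted p of 0.718 by limma) and came to 1.14 without HDM rat 2. The second Serpinc1 probe, well above background in 1 control rat, gave a smaller difference of 0.52 (SE 1.15). Serpinb6a, an intracellular serpin of many cell types, was 3.33, 3.49, 3.98, 3.82 and 3.78 against 2.82, 3.78 and 3.41. These ranges overlapped, with a difference of 0.34 (SE 0.26, adjusted p of 0.730 by limma) that came to 0.087 without control rat 1 and to 0.56 without control rat 2.

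**Figure D3:**
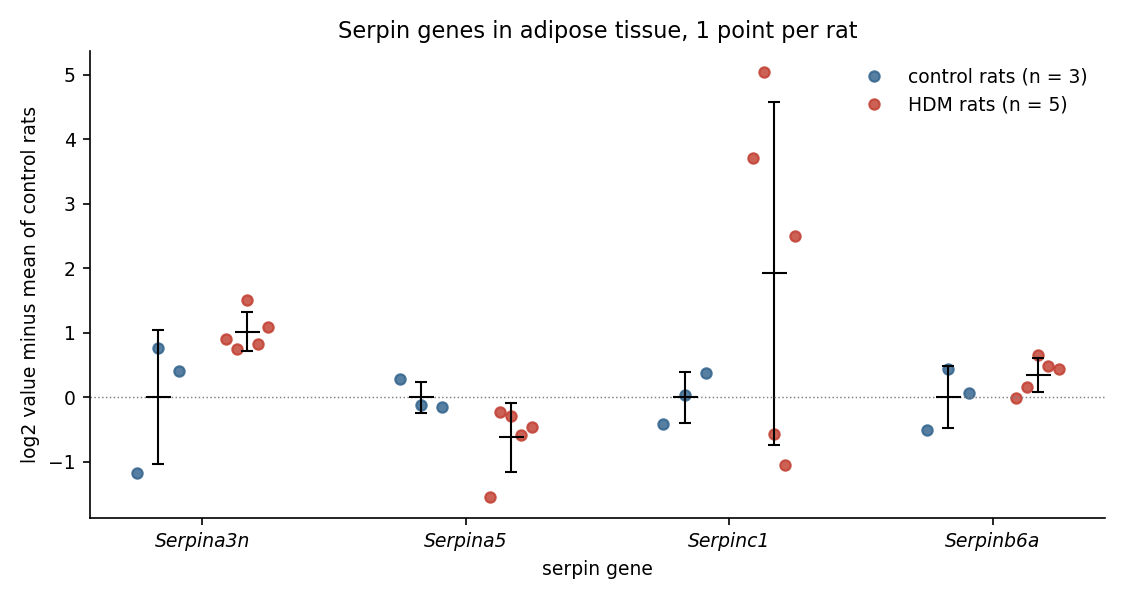
Log2 values of 4 serpin genes in the adipose tissue of each rat, as the difference from the mean of the control rats; points are rats (red, 5 HDM rats; blue, 3 control rats) and black bars are the mean and SD. All HDM rats lie below the control rats for Serpina5, control rat 1 stands apart for Serpina3n, and the HDM rats spread from -6.30 to -0.22 (log2 values) for Serpinc1.

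For several serpin genes of adipose tissue, rats of the same group lay far apart, and 6 of the 22 measured genes had a range above 4 log2 units over the HDM rats (none of 24 in lung). The genes in this and the next paragraph were chosen after their values were seen. Serpina1 had log2 values of 2.88, -1.65, -5.38, -5.20 and 0.70 in HDM rats 1 to 5 and -0.36, -5.27 and 1.04 in control rats 1 to 3. HDM rat 1, control rat 3 and HDM rat 5 were the highest, and the group means differed by -0.20 with an SE of 2.24. Serpina10 (the protein Z-dependent inhibitor of factor X) reached 0.25 in HDM rat 1, -2.32 in HDM rat 5 and -3.51 in control rat 3, and lay between -6.50 and -4.84 in the other rats. Serpina3c and Serpina4 (kallistatin) had the same 3 rats at the top. These serpins are made in the liver, and for 7 of the 10 hepatocyte marker genes, among them Fga and Fgb (fibrinogen chains) and Hp (haptoglobin), the same 3 rats were the highest. For Alb (albumin), Apoc3 and Fgg another rat was among the highest 3. Alb was highest in HDM rat 2 and lay between 5.60 and 6.78 over all rats. The median of the 10 markers relative to each gene's mean over the 8 rats was 4.85 in HDM rat 1, 1.97 in HDM rat 5, 1.49 in control rat 3 and 0.58 in HDM rat 2, and it was -2.70 to -1.85 in the other rats. The part of the hepatocyte genes in the serpin values was not tested.

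In HDM rat 1 and control rat 1 the adipose arrays carried genes of the epididymis and testis, for which 18 of 19 markers had these 2 rats at the top (summed level of 12.3 and 12.6, and 0.58 to 5.38 in the other rats). Serpinf2, the alpha-2-antiplasmin gene, was 3.81 in HDM rat 1 and 5.12 in control rat 1, and between -4.80 and 0.43 in the other rats. Serpinb5 (maspin, an epithelial serpin) was -1.45 and -2.19 in these 2 rats, where alone it was well above background, and between -6.46 and -4.57 in the others. Of the 22 serpin genes measured in adipose tissue, these 2 rats were the highest for 2 (Serpinf2 and Serpinb9) and the lowest for 6 (Serpinb1a, Serpinb6a, Serpinb10, Serpine2, Serping1 and Serpinh1). Serping1 was 6.80 and 6.27 in them and 7.29 to 7.75 in the other rats, and Serpinh1 was 4.04 and 3.89 against 4.88 to 5.38. The 12 adipocyte markers were present in all rats, with summed levels of 10.8 to 11.6. Without the 2 rats no serpin gene was called in adipose tissue, and neither was any other of the 45598 probes. The part of the epididymis and testis genes in the serpin values was not tested.

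**Figure D4:**
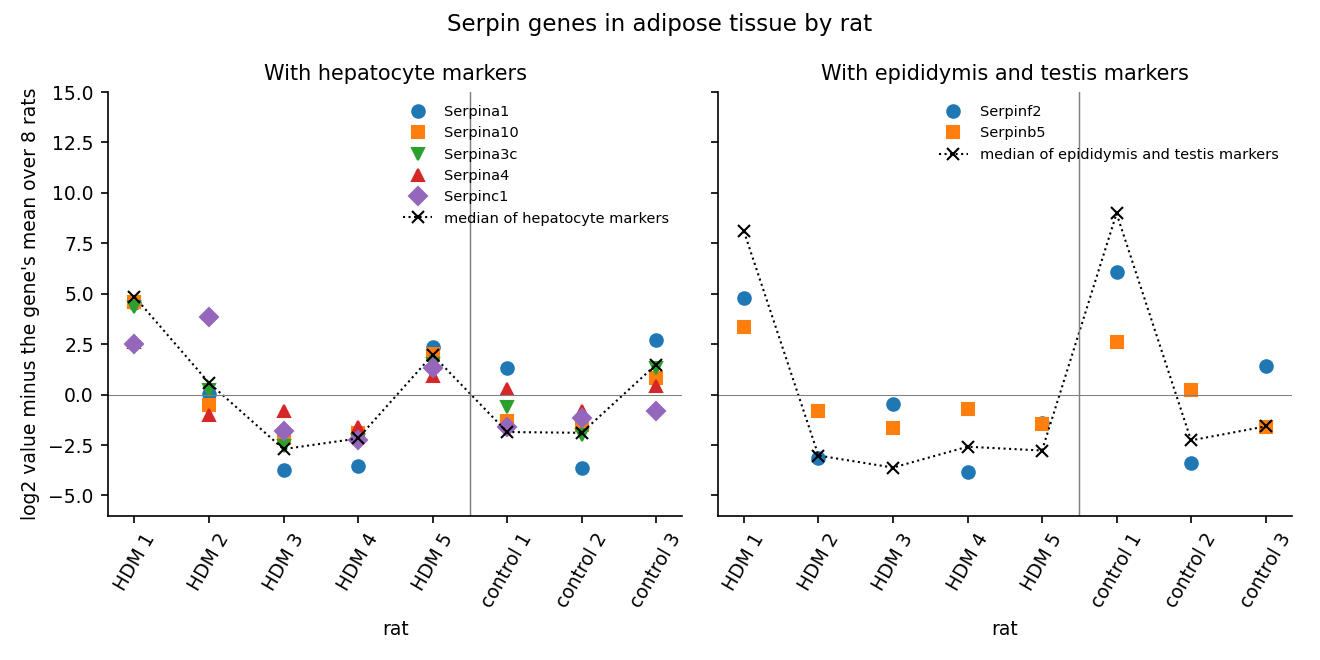
Serpin genes in adipose tissue of the 5 HDM rats and 3 control rats, as the log2 value minus the mean of the gene over the 8 rats, with the median of the hepatocyte markers (left) and of the epididymis and testis markers (right) on the same scale as crosses. On the left HDM rat 1 (marker median 4.85), HDM rat 5 (1.97) and control rat 3 (1.49) are high for Serpina1, Serpina10, Serpina3c and Serpina4, and Serpinc1 is highest in HDM rat 2; on the right HDM rat 1 and control rat 1 are highest for Serpinf2 and Serpinb5.

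Whether the change with HDM differed between the tissues was tested on the difference between the lung and adipose arrays of each rat. No serpin gene passed an adjusted p below 0.05, and 1 of 45598 probes did (0.00219%). At an unadjusted p below 0.05 there were 2 serpin genes (5.1%), beside 7.74% of all probes (3531 probes). For Serpinb1a, the lung value minus the adipose value was 3.28, 1.25, 3.02, 0.86 and 1.60 in HDM rats 1 to 5 and 1.12, 0.55 and 0.08 in control rats 1 to 3. HDM rat 4 lay below control rat 1, so that the groups overlapped. The lung change exceeded the adipose change by 1.42 (SE 0.61), with an adjusted p of 0.644 by limma. In adipose tissue itself Serpinb1a was 2.03 ± 0.66 (SD, n = 5) with HDM and 1.99 ± 0.45 (SD, n = 3) without. The other gene was Serpinb9b, which stayed below the background mark on every array (1.13, SE 0.42, adjusted p of 0.602 by limma).

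Between the tissues of control rats, 21 of the 39 serpin genes were called (53.8%), beside 44.3% of all probes. Of these, 17 were higher in adipose tissue (43.6%, beside 32.2% of all probes) and 4 higher in lung (10.3%, beside 12% of all probes). For 10 of the 17 no control array of either tissue had a signal well above background. Among them was Serpina3m, listed at -1.95 (SE 0.61), lung minus adipose, and none of the 10 is given a direction here. The median over all probes was -0.58 (lung minus adipose), and it was -0.06 after quantile normalization. With that normalization 11 serpin genes were called, beside 11949 of 45598 probes (20183 without it). Each tissue was on its own slide, so that tissue and slide cannot be told apart.

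Serpina3n had the largest tissue difference, with a lung minus adipose value of -6.84, -9.21 and -8.12 in control rats 1 to 3 and of -9.71 to -7.42 in the HDM rats. The mean difference in control rats was -8.06 (SE 0.53, adjusted p of 5.1e-05 by limma), or 266-fold higher in adipose tissue. Serpina12 was -6.52, -7.23 and -7.83 in control rats 1 to 3, a difference of -7.19 (SE 0.33, adjusted p of 1.2e-05 by limma), and since its lung signal was not well above background it was at least 89.1-fold higher in adipose tissue. Serpina11, also of the clade A genes on chromosome 6, differed by -5.63, -6.0 and -5.20 in the 3 control rats (mean -5.61, SE 0.19, adjusted p of 3.1e-06 by limma). Serpinf1, or pigment epithelium-derived factor, which fat cells secrete, differed by -3.75, -3.70 and -3.22 (mean -3.56, SE 0.33, adjusted p of 0.00022 by limma), or 11.8-fold. In every control rat these 4 genes had a higher value in adipose tissue than in lung. The other genes higher in adipose tissue and well above background were Serping1 (-1.5), Serpinb7 (-1.26) and Serpine2 (-1.24). For Serpine2 the SE was 0.39 and the adjusted p 0.031 by limma, and its call was lost without control rat 1 or control rat 2.

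Serpinb10 was the serpin with the largest difference toward lung, by 8.51, 6.08 and 4.14 in control rats 1 to 3 and by 4.19 to 8.34 in HDM rats. The mean difference in control rats was 6.25 (SE 0.92, adjusted p of 0.0017 by limma). In adipose tissue of control rats Serpinb10 lay between -5.66 and -1.25, and the lowest value, that of control rat 1, was not well above background, so that no fold is given. Without control rat 1 the difference was 5.11. Serpinb6b differed by 2.45, 2.66 and 3.09 (mean 2.73, SE 0.17, adjusted p of 4.2e-05 by limma), or 6.65-fold. Serpini1 differed by 1.14, 1.45 and 0.98 (mean 1.19, SE 0.25, adjusted p of 0.0060 by limma), and since its adipose signal was not well above background it was at least 1.25-fold higher in lung. Serpinb6a differed by 1.25, 0.33 and 0.73 (mean 0.77, SE 0.21, adjusted p of 0.018 by limma), and the call was lost without control rat 1 (0.53, also with HDM rat 1 left out) or without control rat 3 (0.79). In all 3 control rats these 4 genes had a higher value in lung than in adipose tissue.

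**Figure D5:**
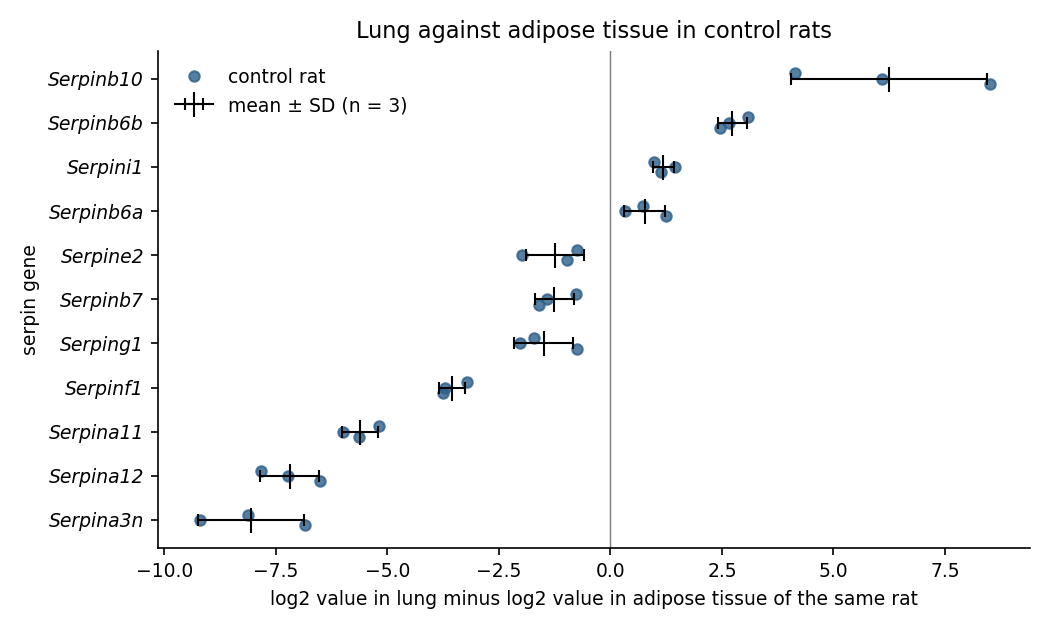
Lung minus adipose log2 value of the same rat for the 11 serpin genes called between tissues in control rats that were well above background on a control array; blue points are the 3 control rats and black bars the mean and SD. Serpinb10, Serpinb6b, Serpini1 and Serpinb6a lie to the right of 0 (higher in lung) and the other 7 genes to the left, with Serpina3n (-8.06) and Serpina12 (-7.19) the farthest.

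The arrays of lung had 62.1% to 68.8% of probes well above background and those of adipose tissue 50.8% to 60.3%, and the 75th percentile signal was 376 to 488 in lung and 111 to 240 in adipose tissue. The adipose array of HDM rat 2 had 1224 outlier spots, and the other adipose arrays had 355 to 444. The labelled tissues had their markers, with summed levels of the lung epithelium list of 10.8 to 11.1 on all lung arrays.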

How the data were processed

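The authors deposited, for each of the 16 arrays, the linear and background-subtracted intensities of its spots as given by Feature Extraction 12.0.3.1, without normalization between arrays. A log2 table made by the authors in GeneSpring was deposited as well, and 39 of its cells hold a month name and were treated as missing. For a check against it, each probe's median within the tissue was subtracted from the values computed here. After that step 99.9% (lung) and 99.8% (adipose tissue) of the values of the deposited table lay within 0.1 of them. The values printed in this report were not centred in this way. Control probes and outlier spots were removed from the intensities, log2 values were averaged over the spots of each probe, and every array had its own 75th percentile subtracted. Probes were named through RefSeq accessions and a gene table of the GRCr8 assembly (47357 genes). Each tissue was fitted separately for HDM against control with lmFit and eBayes of limma 3.58.1 (R 4.3.3), with Benjamini–Hochberg adjustment over 45598 probes; a probe was called at an adjusted p below 0.05 and a fold change above 1.5. The comparison between tissues used the lung minus adipose difference of each rat. All p-values are two-sided. "Well above background" is the scanner software's mark. A bound ("at least") sets the dim group, per array, at the lowest signal among probes well above background, or at its own signal where that was higher.

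Genes described in every rat were those called, in each tissue the 5 uncalled genes of smallest p that were well above background on at least 3 arrays, those with an unadjusted p below 0.05 for the difference between tissues (at most 5), and the 5 largest called tissue differences in each direction; genes outside this rule are marked as such. The counts cover all 39 serpin genes, of which 1 is not reported here by name. The members and the lists were chosen with earlier results of these data known. The lists hold serpin targets (48 genes), other inhibitors (22), and markers of neutrophils (20), macrophages (14), lung epithelium (12), adipocytes (12), epididymis and testis (20), mesothelium (8) and hepatocytes (10). No mesothelium gene was called in either tissue (7 measured). The fit was tested on simulated data. The number of arrays limits the precision. Rats are separate animals by their labels. Replicate numbers do not pair HDM with control rats, which are different animals (correlation of deviations -0.08 to 0.05 in lung and 0.10 to 0.59 in adipose tissue). Plots used matplotlib 3.10.9 (Python 3.11.15). Alternatives covered the test, normalization, background correction, deposited table, dim probes, array weights, slide row, blocks, thresholds, the choice of probe and leaving out each rat.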

Additional observations from a re-analysis of the deposited data

Results flagged for a closer look

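A sample that stood apart from the rest of its group was looked for among the 5 HDM rats for the 46 combinations of a measured serpin gene and a tissue, and 3 were found; chance alone marks about 1 in 20 groups, or 2.3 of 46. Serpina5 in adipose tissue was -4.05 in HDM rat 1, apart from the -3.09 to -2.74 of the other HDM rats. Serping1 in adipose tissue was 6.80 in HDM rat 1, apart from 7.57 to 7.75. Both values belong to the HDM rat whose adipose array carried epididymis and testis genes. Serpinb10 in lung was 3.51 in HDM rat 3, apart from 2.73 to 2.96, and this rat also had the highest neutrophil sum in lung (8.51). The causes were not tested.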

How the results depend on the processing

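The count of called serpin genes in adipose tissue was 0 under every alternative run, and so was the count of genes whose change differed between tissues. In lung, where 0 were called, 1 was called with quantile normalization (Serpinb1a), 1 with the 75th percentile taken over probes well above background (Serpinb8), 1 with normexp background correction with an offset of 50 and quantile normalization (Serpinb1a), 2 with dim probes left out (Serpinb8 and Serpinb1a), 3 with array weights (those and Serpind1) and 4 with p-values adjusted only over probes past 1.5-fold (Serpinb8, Serpinb1a and Serpind1 among them). It was 0 with the methods' t-test, the deposited table, the joint fit of both tissues and each rat left out. Over all 45598 probes the lung calls were 390, with 166 in the joint fit, 100 to 333 with a rat left out, 705 with array weights and 1329 with adjustment only over probes past 1.5-fold. With the slide row as a block the lung comparison rested on HDM rat 5 against the control rats, so no count is given for it. With the replicate number as a replicate block the lung count was 0 and the adipose count 0, while the number of all probes called in lung went from 390 to 0. Between tissues, 21 serpin genes were called, 11 with quantile normalization, 8 with normexp background correction and quantile normalization and 11 with dim probes left out. The count was 21 with no replicate block, 22 with any probe of a gene and 15 to 25 when each rat was left out. Calls over all 45598 probes fell as well, from 20183 to 11949 with quantile normalization and to 7892 with normexp background correction and quantile normalization. With dim probes left out 12898 of 31656 probes were called. All 19 named differences kept their sign under all alternatives run (327 values), while sizes moved. They were named by their p or size in these same data. Among them, Serpina3m was not well above background on any control array and Serpinb9b on any array, so their signs are not read as directions. The calls between tissues gained Serpinb8 with no replicate block, Serpinh1 without control rat 1, Serpinf2 without control rat 2, Serpina10, Serpina3c, Serpind1 and Serpinf2 without HDM rat 1, and Serpind1 and Serpinh1 without both rats 1. Serpina3m lost its tissue call with quantile normalization, with normexp background correction and without any 1 of the control rats. Serpinb6a lost it without control rat 1 or 3 or without HDM rat 1 and control rat 1, and Serpini1 and Serping1 lost it with normexp background correction. Serpine2 lost it with median scaling, with normexp background correction, without control rat 1 or 2 and without HDM rat 1 and control rat 1. With the slide row as a block Serpinb8 in lung was 0.57, and with normexp background correction Serpinb8 was 0.34 and Serpind1 -0.28 in lung, Serpina5 -0.095 and Serpinc1 0.59 in adipose tissue, Serpinb9b 0.15 for the difference between the changes, and Serpini1 0.26, Serpina11 -3.71 and Serpina12 -2.93 between tissues. Without control rat 1 Serpina3n in adipose tissue was 0.42, and with array weights it was 0.49. The causes were not tested. Signal limits the comparison, since 15 serpin genes in lung and 17 in adipose tissue were above background on fewer than 3 arrays.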
